A study of Mus musculus with 12 samples.

Results

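The 8 genes described here are those of macrophage fusion and of the osteoclast: Ocstamp, Dcstamp, Atp6v0d2, Acp5, Ctsk, Tnfrsf11a, Nfatc1 and Oscar. They were taken by symbol from a table of 48440 genes, each symbol matched 1 row, and 7 of the 8 passed the filter on low counts and were tested among 16292 genes. The cells were mouse bone marrow-derived macrophages, grown from marrow precursors, with the genotype label WT or CKO. Libraries of each genotype were untreated, treated for 24 h with IFN-γ at 100 U/mL, or treated for 24 h with IL-4 at 20 ng/mL, which gives 6 groups of 2 libraries. The labels give no strain, sex, age or RANK ligand treatment, do not spell out CKO or say what drives the deletion, and leave unsaid whether both libraries of a group are from 1 animal or culture. The p-values therefore cover only the variation from library to library, which can be technical.

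Osteoclasts are bone-resorbing cells that form when macrophage precursors fuse. RANK, a surface receptor encoded by Tnfrsf11a, and costimulatory receptors such as OSCAR induce the transcription factor NFATc1, which switches on fusion genes (Dcstamp, Ocstamp, Atp6v0d2) and resorption genes (Acp5, Ctsk). IL-4 is known to fuse macrophages into foreign-body giant cells, while IFN-γ and IRF8, the factor named in the series title, are known as brakes on osteoclast formation.

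Library totals ran from 21287725 to 32717379 counts. Untreated CKO library 1 stood apart, with 1.52% of its counts on mitochondrial genes against 2.12% to 3.25% in the other 11. The mitochondrial gene mt-Rnr2 alone held 0.298% of its counts, against 0.925% to 1.54% in the other 11. Results of the members and lists that rest on this library are therefore also given without it. All 8 macrophage markers examined, Csf1r, Adgre1 and Cd68 among them, had counts in every group, and their summed level ran from 3451 to 7821 CPM (counts scaled to a common library size). This sum was 5005 and 5038 CPM in untreated WT and 5335 and 4954 in untreated CKO. After IFN-γ it was 3451 and 3572 CPM in WT and 4965 and 4774 in CKO. After IL-4 it was 7789 and 7503 CPM in WT and 7821 and 7251 in CKO. Irf8 was higher in the libraries labelled CKO, with 270 ± 31.7 CPM against 91.1 ± 0.228 untreated, 1188 ± 21.8 against 507 ± 7.77 after IFN-γ and 154 ± 20.6 against 68.2 ± 3.69 after IL-4 (mean ± SD, n = 2). Its count over the whole gene thus went against a loss of the transcript and does not check a deletion of single exons, so a genotype difference here always means the libraries that carry the CKO label against those that carry the WT label. Lyz2, the lysozyme gene, lay between 12.6 and 27.96 CPM in the CKO libraries and at 5843 CPM or more in the WT libraries. Summed markers of other cells ran over the 12 libraries from 11.2 to 28.7 CPM for T and B cells and from 0.0414 to 0.379 for erythroid cells. The T and B cell sum was 24.5 and 28.7 CPM in untreated WT against 23.9 and 19.9 in CKO. It was 20.8 and 25.2 against 13.7 and 13.1 after IFN-γ, and 14.2 and 20.6 against 11.2 and 12.1 after IL-4. The summed level of 8 osteoblast and stromal markers was higher in CKO without overlap in all 3 conditions (5.97 and 5.29 CPM in untreated WT against 10.8 and 10.98 in CKO, 2.98 and 2.48 against 7.07 and 6.73 after IFN-γ, 6.37 and 6.85 against 12.5 and 11.4 after IL-4). Of the 2 tested, 1 (Runx2) was higher in CKO each time and fell with IFN-γ in both genotypes, while Alpl, Bglap and Sp7 had 0 counts in at least 4 of the 6 groups. The 5 mast cell markers summed to 0.203 to 0.986 CPM in the untreated and IL-4 libraries, 2.61 and 1.73 in IFN-γ WT and 6.81 and 5.69 in IFN-γ CKO; of the 2 tested, 1 (Hdc) rose with IFN-γ in both genotypes, and Mcpt4 and Tpsb2 had 0 counts throughout. The part of such cells in the members' values was not tested.

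Ocstamp encodes a multi-pass membrane protein needed for cell fusion (ENSMUSG00000027670.4; GRCm38 chromosome 2, 165393760 to 165400405, minus strand). It was close to silent in untreated cells and was switched on by both cytokines. Libraries 1 and 2 held 0.594 and 0.239 CPM in untreated WT and 0.759 and 0.519 CPM in untreated CKO. After IFN-γ they held 105 and 97.9 CPM in WT and 11.4 and 10.6 CPM in CKO. After IL-4 they held 9.41 and 10.03 CPM in WT and 14.4 and 13.9 CPM in CKO. The IFN-γ WT libraries were the highest of the 12, and the 4 untreated libraries were the lowest, with no order between their genotypes. IFN-γ raised Ocstamp in both genotypes, by a log2 fold change of 7.92 ± 0.23 (WT, edgeR adjusted p = 5e-10) and 4.13 ± 0.22 (CKO, edgeR adjusted p = 5.81e-08), where ± is an approximate SE. The 2 responses differed by −3.80 ± 0.39 on the log2 scale (edgeR interaction, adjusted p = 0.000605), and this difference was past the test in 15 of 15 alternative fits. The untreated WT level rests on 17 and 7 counts: without library 1 of that group the difference was −4.57 and the WT response 8.70, and without library 2 they were −3.27 and 7.40. After IFN-γ the CKO level was lower than the WT level by a log2 fold change of −3.21 ± 0.16 (edgeR adjusted p = 4.97e-07). IL-4 raised it by 4.54 ± 0.24 in WT and 4.49 ± 0.22 in CKO (edgeR adjusted p = 3.63e-07 and 1.54e-07), and the difference between these responses was −0.05 ± 0.35 (edgeR adjusted p = 0.987).

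The summed level of dendritic cell markers moved with Ocstamp after IFN-γ, mostly through 1 gene. The summed level of the 7 markers was 46.7 and 55.3 CPM in the IFN-γ WT libraries, 9.18 and 7.58 CPM in the IFN-γ CKO libraries and 1.16 to 3.78 CPM in the other 8, and most of it after IFN-γ came from Clec9a, a receptor for dead cells on type 1 dendritic cells (48.2 ± 6.35 CPM in WT, 5.98 ± 0.685 in CKO). Of the 4 dendritic cell markers tested, 2 were higher after IFN-γ in WT and 2 were lower in CKO than in WT after IFN-γ. In bulk RNA, more cells of a type and more RNA per cell cannot be told apart, and the part of such cells in the Ocstamp values was not tested. After IL-4, where Ocstamp also rose, the markers summed to 2.27 and 2.03 CPM in WT and 3.78 and 3.43 in CKO, and 1 of the 4 tested, Zbtb46, was higher than in untreated cells in both genotypes. With IFN-γ in CKO 1 of the 4, Clec9a, was higher.

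Dcstamp encodes the closely related dendritic cell-specific transmembrane protein, which is required for fusion of osteoclasts and giant cells (ENSMUSG00000022303; GRCm38 chromosome 15, 39745930 to 39760938, plus strand). It rose after IL-4 in both genotypes, and after IFN-γ its change differed between them. In untreated cells, libraries 1 and 2 held 1.92 and 2.11 CPM in WT and 3.72 and 3.08 CPM in CKO. After IFN-γ the values were 2.69 and 2.55 CPM in WT and 1.28 and 1.970 CPM in CKO. After IL-4 they were 6.99 and 7.80 CPM in WT and 11.9 and 11.4 CPM in CKO. The 4 IL-4 libraries stood above all others, and the order of the genotypes in untreated cells, CKO above WT, was turned round after IFN-γ without overlap, where the genotype difference of −0.69 ± 0.22 just missed the threshold (edgeR adjusted p = 0.0502). IL-4 raised Dcstamp by a log2 fold change of 1.87 ± 0.20 in WT and 1.78 ± 0.18 in CKO (edgeR adjusted p = 6.02e-05 and 3.99e-05). IFN-γ lowered it in CKO (−1.06 ± 0.21, edgeR adjusted p = 0.00288), while in WT the log2 fold change was 0.38 ± 0.21 (edgeR adjusted p = 0.249). The difference of these responses, −1.43 ± 0.30, passed the test with all libraries (edgeR interaction, adjusted p = 0.0275). The call was lost without untreated WT library 1 or 2, IFN-γ WT library 1 or 2, untreated CKO library 1 or IFN-γ CKO library 1 (values of −1.49 to −1.20, edgeR adjusted p from 0.0593 to 0.118). In untreated cells Dcstamp was higher in CKO by 0.75 ± 0.20 (edgeR adjusted p = 0.0291), and this call too was lost without either untreated WT library or without untreated CKO library 1 (edgeR adjusted p = 0.147, 0.104 and 0.155).

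**Figure D1:**
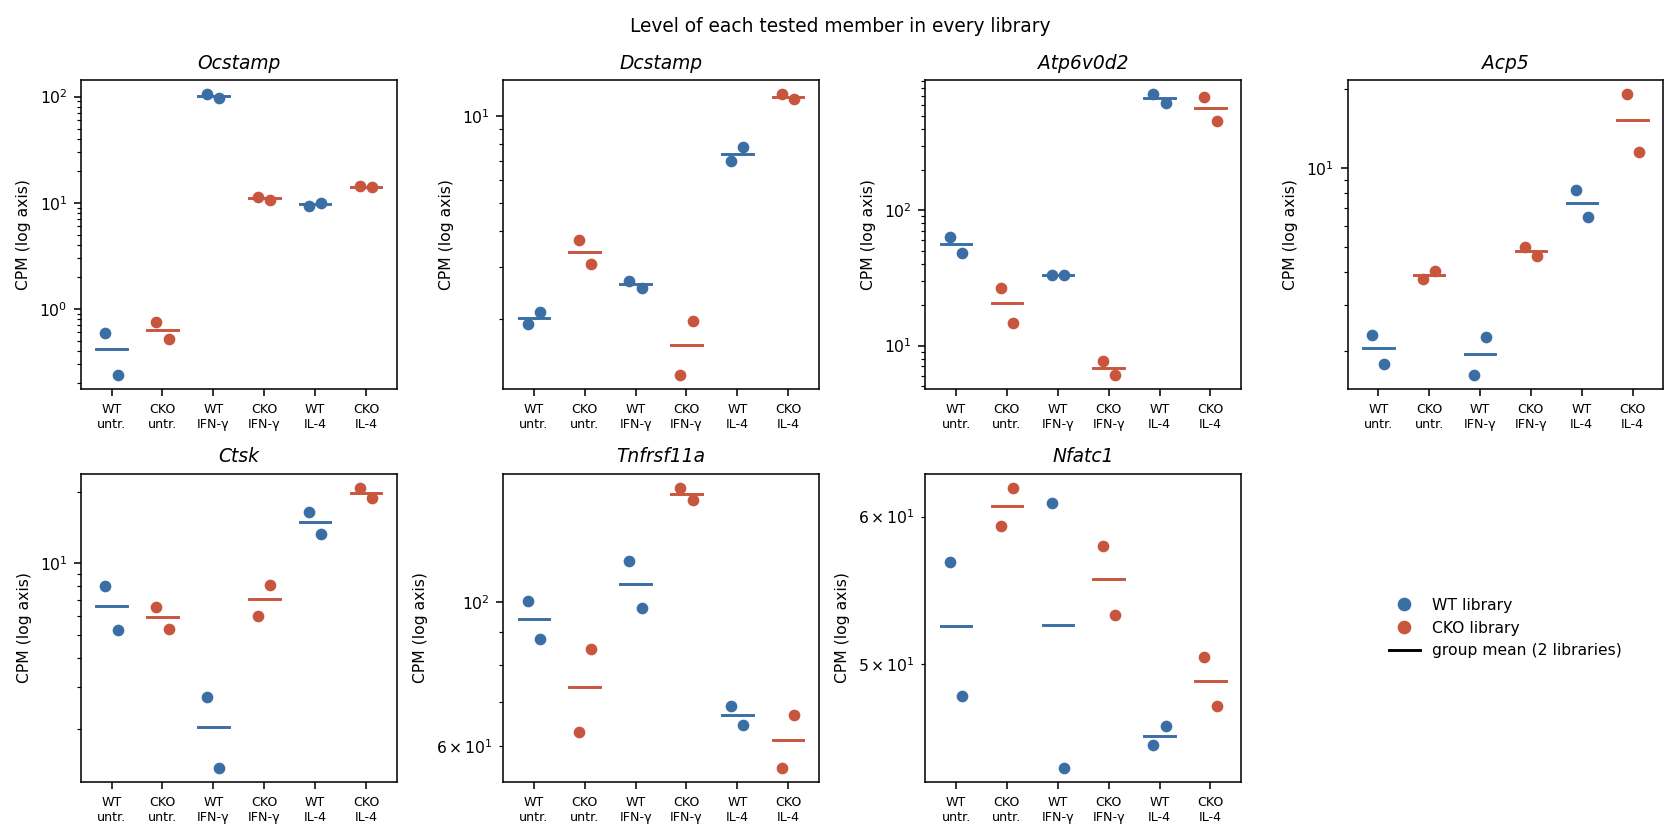
Level of the 7 tested members in each library, in CPM on a log axis that differs between panels; each point is 1 library and each line the mean of the 2 libraries of a group, WT in blue and CKO in red. Ocstamp is highest in the IFN-γ WT libraries (105 and 97.9 CPM), and Dcstamp, Atp6v0d2, Acp5 and Ctsk are highest in the IL-4 libraries.

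Atp6v0d2 encodes the d2 isoform of a subunit of the vacuolar proton pump, found in few cell types, and is needed for fusion of osteoclast precursors (ENSMUSG00000028238.6; GRCm38 chromosome 4, 19876841 to 19922605, minus strand). Its largest changes were the rises with IL-4, and it was lower in CKO than in WT untreated and after IFN-γ. Of Atp6v0d2, libraries 1 and 2 held 63.0 and 48.7 CPM in untreated WT and 26.7 and 14.6 CPM in untreated CKO. After IFN-γ they held 32.95 and 33.27 CPM in WT and 7.63 and 6.06 CPM in CKO. After IL-4 they held 720 and 623 CPM in WT and 691 and 456 CPM in CKO. WT and CKO did not overlap in untreated cells or after IFN-γ, and overlapped after IL-4. The log2 fold change with IL-4 was 3.59 ± 0.29 in WT and 4.80 ± 0.31 in CKO (edgeR adjusted p = 1.94e-05 and 2.98e-06). Their difference of 1.22 ± 0.37 was not past the test (edgeR interaction, adjusted p = 0.748), but was with a block for library number within each genotype (1.23, edgeR adjusted p = 0.00411). IFN-γ lowered Atp6v0d2 in CKO (−1.59 ± 0.29, edgeR adjusted p = 0.00237). The value in WT, −0.75 ± 0.27, missed the threshold (edgeR adjusted p = 0.0681) and passed it with DESeq2 (adjusted p = 0.0166). CKO was lower than WT by −2.27 ± 0.30 after IFN-γ (edgeR adjusted p = 0.000534) and by −1.44 ± 0.27 untreated (edgeR adjusted p = 0.00708). The untreated difference missed the threshold without untreated WT library 1 (−1.24, edgeR adjusted p = 0.0577).

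Atp6v0d1, the isoform gene that most cells use, served as a reference for the pump. Per kb of exon, Atp6v0d1 stayed between 90.9 ± 1.45 and 131 ± 1.57 CPM in all 6 groups, while Atp6v0d2 ranged from 2.52 CPM per kb in IFN-γ CKO to 247 in IL-4 WT. Of the summed length-scaled level of both genes, d2 made up 16.0% and 13.6% in untreated WT, 8.601% and 4.35% in untreated CKO, 11.66% and 11.998% in IFN-γ WT and 2.86% and 2.24% in IFN-γ CKO. In the IL-4 libraries it made up 67.1% and 63.4% in WT and 66.4% and 58.7% in CKO. The d2 gene was thus the smaller part of the pair in the 8 untreated and IFN-γ libraries and the larger in the 4 IL-4 libraries. The log2 fold change of Atp6v0d1 with IL-4 was 0.15 ± 0.09 in both genotypes (edgeR adjusted p = 0.361 in WT and 0.266 in CKO), and IFN-γ lowered it in WT by −0.38 ± 0.09 (edgeR adjusted p = 0.0101).

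**Figure D2:**
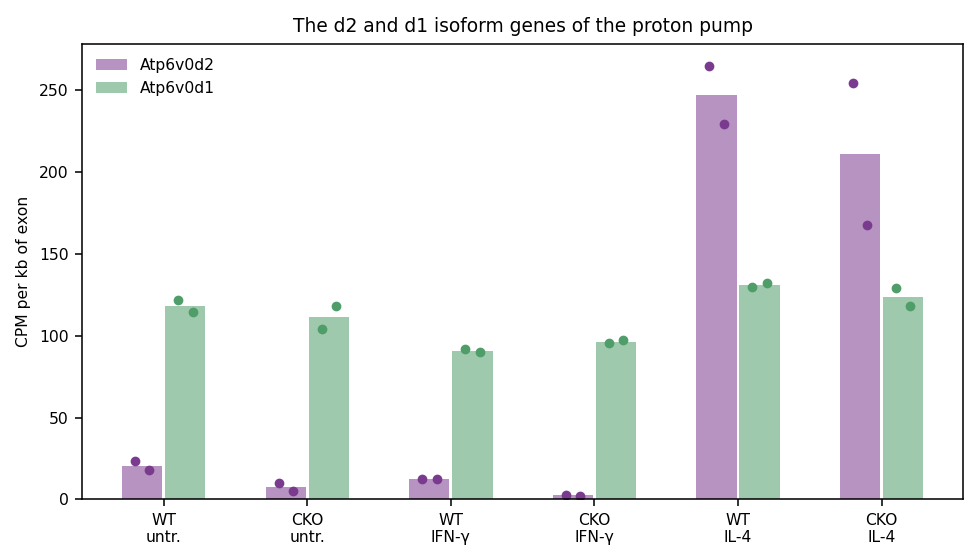
Mean level of Atp6v0d2 (purple bars) and Atp6v0d1 (green bars) per group in CPM per kb of exon, with a point for each of the 2 libraries. Atp6v0d1 lies between 90.9 and 131 in every group, while Atp6v0d2 exceeds it in the 2 IL-4 groups only.

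Acp5 and Ctsk encode the secreted products of the resorbing osteoclast: tartrate-resistant acid phosphatase, the classical stain of the cell, and cathepsin K, its collagen-degrading protease. Acp5 (ENSMUSG00000001348) lies on GRCm38 chromosome 9, 22126727 to 22135711, minus strand, and Ctsk (ENSMUSG00000028111.4) on chromosome 3, 95499256 to 95509362, plus strand. Both rose with IL-4 in both genotypes. Of the 5 members that rose with IL-4 in both genotypes, only these 2 had an entry in the promoter source, and their upstream sequence is shown. It is RefSeq's on GRCm38.p6 and covers the 250 bases before a transcript start. The window is chr9:22130599-22130848 on the minus strand for the innermost of 3 Acp5 starts and chr3:95498960-95499209 on the plus strand for Ctsk. Capitals mark matches, on either strand, to any of the motifs named after the sequences.
Acp5: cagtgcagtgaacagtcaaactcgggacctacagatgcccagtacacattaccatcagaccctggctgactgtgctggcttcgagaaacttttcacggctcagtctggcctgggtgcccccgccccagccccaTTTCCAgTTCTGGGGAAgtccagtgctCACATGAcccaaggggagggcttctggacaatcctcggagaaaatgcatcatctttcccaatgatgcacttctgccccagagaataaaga
Ctsk: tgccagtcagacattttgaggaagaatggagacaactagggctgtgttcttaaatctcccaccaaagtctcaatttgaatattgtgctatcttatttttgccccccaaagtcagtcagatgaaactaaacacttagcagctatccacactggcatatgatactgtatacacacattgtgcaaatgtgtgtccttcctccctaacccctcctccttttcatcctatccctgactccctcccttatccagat
The motifs searched were ISRE (GAAA, any 2 bases, GAAA), GAS (TTCNNNGAA), STAT6 (TTC, any 4 bases, GAA), PU.1 (AGAGGAAGT), AP-1 (TGANTCA), MITF (TCATGTG) and NFAT (TGGAAA). The Acp5 window held 1 NFAT match starting 117 bases before the start, 1 STAT6 match at 110 and 1 MITF match at 90, with no overlap between them. Of 32851 promoter windows of the same length, 18.6% held the NFAT letters, 5.85% the STAT6 letters and 3.25% the MITF letters, beside 7.02% for GAS, 6.75% for AP-1, 2.98% for ISRE and 0.798% for PU.1. The Ctsk window, the windows of the other 2 Acp5 starts and that of Tnfrsf11a held none of the 7 motifs, and that of Oscar held 2 NFAT matches. A match is a description of letters and not a binding site.

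Libraries 1 and 2 held 2.31 and 1.77 CPM of Acp5 in untreated WT, 3.76 and 4.04 CPM in untreated CKO, 1.61 and 2.27 CPM in IFN-γ WT and 5.002 and 4.61 CPM in IFN-γ CKO. After IL-4 they held 8.20 and 6.52 CPM in WT and 19.1 and 11.5 CPM in CKO. CKO stood above WT without overlap in all 3 treatments. IL-4 raised Acp5 by a log2 fold change of 1.84 ± 0.27 in WT and 1.97 ± 0.25 in CKO (edgeR adjusted p = 0.000804 and 0.000177). The changes with IFN-γ, −0.06 ± 0.30 in WT and 0.30 ± 0.26 in CKO, were not past the test (edgeR adjusted p = 0.923 and 0.439). Acp5 was higher in CKO under all 3 conditions: by 0.94 ± 0.28 untreated, by 1.30 ± 0.28 with IFN-γ and by 1.06 ± 0.24 with IL-4 (edgeR adjusted p = 0.0394, 0.00813 and 0.0349). Each of these 3 calls depended on single libraries: the untreated call was lost without any 1 of its 4 libraries (0.75 to 1.14), the IFN-γ call without library 1 of WT or of CKO (1.09 and 1.22), and the IL-4 call without either WT library or without CKO library 1 (1.24, 0.92 and 0.65). Acp5 shares 137 bases of exon with 6530413G14Rik on the opposite strand, and reads there could belong to either gene if the counting ignored strand.

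Ctsk was the only member that fell past the edgeR threshold with IFN-γ in WT. Of Ctsk, libraries 1 and 2 held 8.03 and 5.22 CPM in untreated WT, 6.56 and 5.30 CPM in untreated CKO, 2.73 and 1.37 CPM in IFN-γ WT and 5.98 and 8.14 CPM in IFN-γ CKO. After IL-4 they held 16.4 and 13.3 CPM in WT and 20.8 and 18.8 CPM in CKO. The IFN-γ WT libraries were the lowest of the 12 and did not overlap with any group, while IFN-γ CKO overlapped with both untreated groups. The log2 fold change with IFN-γ was −1.71 ± 0.31 in WT, past the test, and 0.26 ± 0.28 in CKO, not past it (edgeR adjusted p = 0.00178 and 0.547). After IFN-γ Ctsk was higher in CKO than in WT by 1.801 ± 0.31 (edgeR adjusted p = 0.00234), a call that held in 10 of 10 alternative fits. The difference of the responses, 1.96 ± 0.42 (edgeR interaction, adjusted p = 0.0317), lost its call without untreated WT library 1, IFN-γ WT library 2, or any of the 4 CKO libraries (1.54 to 2.13, edgeR adjusted p from 0.0532 to 0.14). IL-4 raised Ctsk by 1.16 ± 0.27 in WT and 1.74 ± 0.27 in CKO (edgeR adjusted p = 0.0152 and 0.000896). The WT call was lost without untreated WT library 2 (0.87, edgeR adjusted p = 0.133) or IL-4 WT library 1 (1.0003, edgeR adjusted p = 0.129).

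The receptor gene of the program passed the test in 1 of the 9 comparisons and its master factor in none. Tnfrsf11a (ENSMUSG00000026321.7; GRCm38 chromosome 1, 105780718 to 105847981, plus strand) encodes RANK, the receptor for the osteoclast-inducing ligand. Libraries 1 and 2 held 100.2 and 87.7 CPM in untreated WT, 63.0 and 84.7 CPM in untreated CKO, 116 and 97.7 CPM in IFN-γ WT, 150.0 and 143 CPM in IFN-γ CKO, 69.2 and 64.5 CPM in IL-4 WT and 55.4 and 67.0 CPM in IL-4 CKO. The IFN-γ CKO libraries were the highest of the 12, and the IL-4 groups overlapped with each other and with untreated CKO. In CKO, IFN-γ raised Tnfrsf11a by a log2 fold change of 0.99 ± 0.15 (edgeR adjusted p = 0.000377), and by 0.77, still past the test, without untreated CKO library 1. In WT the value was 0.18 ± 0.15 (edgeR adjusted p = 0.443), and the difference of the responses, 0.81 ± 0.21, was not past the edgeR test (adjusted p = 0.0734) and was with DESeq2 (adjusted p = 0.016). The IL-4 change in WT, −0.49 ± 0.15 (edgeR adjusted p = 0.0539), and the genotype difference after IFN-γ, 0.46 ± 0.15 (edgeR adjusted p = 0.051), lay just over the threshold and passed it with DESeq2 (adjusted p = 0.0241 and 0.0277).

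Nfatc1 (ENSMUSG00000033016, chromosome 18) encodes the master transcription factor of the osteoclast. Libraries 1 and 2 held 56.7 and 48.0 CPM in untreated WT, 59.3 and 62.2 CPM in untreated CKO, 61.0 and 43.9 CPM in IFN-γ WT, 57.9 and 53.1 CPM in IFN-γ CKO, 45.2 and 46.3 CPM in IL-4 WT and 50.4 and 47.4 CPM in IL-4 CKO. The 12 values spanned 43.9 to 62.2 CPM, and the libraries of IFN-γ WT alone covered most of that range. Its log2 fold changes lay between −0.31 and 0.21 in the 7 contrasts of 2 groups. In the 9 comparisons edgeR and DESeq2 each called it 0 times, and 1 unadjusted edgeR p was under 0.05, that of IL-4 in CKO (−0.31 ± 0.14, edgeR adjusted p = 0.136). With the block for library number within genotype, 1 of 11 alternatives for that comparison, it passed (edgeR adjusted p = 0.0435). Oscar (ENSMUSG00000054594.13; GRCm38 chromosome 7, 3609813 to 3616157, minus strand), a collagen receptor that costimulates NFATc1, had 2 counts in the 12 libraries together, 1 in untreated WT library 1 and 1 in untreated CKO library 2. The other 10 libraries had 0 counts, which allows up to 0.141 CPM in the shallowest library (3 counts, counting error only), and Oscar was not tested.

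Between genes, levels were compared per kb of exon; the kit enriches exons by capture, so capture efficiency also enters these values. In untreated WT, Atp6v0d2 (20.6 CPM per kb) and Tnfrsf11a (15.7) led, followed by Nfatc1 (7.01), Ctsk (4.38), Acp5 (1.005), Dcstamp (0.757) and Ocstamp (0.114). After IFN-γ in WT the highest was Ocstamp, at 27.8 CPM per kb. After IL-4 in WT Atp6v0d2 led at 247 CPM per kb, followed by Tnfrsf11a at 11.2.

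IFN-γ moved members in both directions. In WT, Ocstamp rose and Ctsk fell, 2 of the 7 tested members, against 24.2% of all 16292 tested genes called in that comparison (12.4% higher and 11.8% lower); the libraries of 4 members did not overlap, against 59.9% of all tested genes. Both shares in WT are near those of all tested genes. In CKO, Ocstamp and Tnfrsf11a rose and Dcstamp and Atp6v0d2 fell, 4 of 7 against 26.6% of all tested genes (14.7% higher and 11.9% lower), and 6 did not overlap, against 61.8%. The median log2 fold change of the 7 was 0.00 in WT and 0.26 in CKO, beside −0.00 and 0.00 over all tested genes. The 4 calls in CKO also stood without untreated CKO library 1. The 2 comparisons of each cytokine with untreated cells share the untreated libraries of their genotype with those of the other cytokine.

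Other genes of the osteoclast pathway were described from 5 lists. Of 16 tested genes of fusion and adhesion, 5 rose and 5 fell with IFN-γ in WT and 8 rose and 3 fell in CKO. Itgb3, the β3 integrin chain that osteoclasts use to attach to bone, fell from 18.4 ± 4.61 to 0.552 ± 0.273 CPM in WT (a log2 fold change of −5.07 ± 0.25, edgeR adjusted p = 3.17e-08) and from 13.2 ± 0.120 to 1.40 ± 0.0912 CPM in CKO (−3.23 ± 0.22, edgeR adjusted p = 4.28e-07). Its partner chain gene Itgav rose in both, from 220 ± 18.2 to 411 ± 3.84 CPM in WT. Of 15 tested brakes on the program, 7 rose and 2 fell in WT and 8 rose in CKO, Irf8 among them (log2 fold change 2.48 ± 0.12 and 2.14 ± 0.12). Of 19 osteoclast transcription factors, 7 rose and 2 fell in WT and 7 rose in CKO. Jdp2, an AP-1 partner that promotes osteoclast formation, rose from 13.2 ± 1.26 to 75.0 ± 5.84 CPM in WT and from 11.04 ± 4.08 to 30.4 ± 2.24 in CKO. Nfatc2, a relative of Nfatc1, rose in WT (0.90 ± 0.14, edgeR adjusted p = 0.000563) with a value of −0.17 ± 0.14 in CKO, and the responses differed (interaction −1.07 ± 0.20, edgeR adjusted p = 0.0165). Of 21 genes of the resorption machinery, 5 rose and 5 fell in WT and 7 rose and 4 fell in CKO. Clcn7, the gene of a lysosomal chloride transporter of the resorbing membrane, rose by 1.22 ± 0.10 in WT and 1.48 ± 0.10 in CKO. Genes of the proton pump moved both ways. Atp6v0a1 (−0.96 ± 0.12 in WT and −0.95 ± 0.12 in CKO) and Atp6v1a (−0.91 ± 0.10 and −0.71 ± 0.10) fell. Tcirg1, also a pump subunit gene, rose (0.41 ± 0.11 and 0.52 ± 0.11). Of 30 signalling genes, 3 rose and 5 fell in WT and 7 rose and 3 fell in CKO, with the adaptor gene Blnk lower in both (−1.10 ± 0.11 and −1.57 ± 0.11).

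Among the members, IL-4 raised the 5 fusion and resorption genes in both genotypes. It moved neither Tnfrsf11a nor Nfatc1 past the test in the reported edgeR fit. Tnfrsf11a in WT (edgeR adjusted p = 0.0539) passed it in 7 of 11 alternative fits, and Nfatc1 in CKO in 1 of 11. The 5 that rose in each were Ocstamp, Dcstamp, Atp6v0d2, Acp5 and Ctsk, 5 of 7 tested members, against 6.64% of all tested genes higher and 5.59% lower in WT (12.2% in all) and 11.2% higher and 11.3% lower in CKO (22.5% in all). The libraries did not overlap for 7 members in WT, against 61.8% of all tested genes, and for 6 in CKO, against 56.8%. The median log2 fold change of the 7 was 1.84 in WT and 1.78 in CKO, beside −0.00 and 0.00 over all tested genes. In WT these 5 calls stood in every alternative fit that could test them, except Ctsk without the libraries named above. Without untreated CKO library 1 the 5 calls in CKO stood and Tnfrsf11a was lower (−0.48, edgeR adjusted p = 0.0474).

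Among the pathway lists, the E-cadherin and β3 integrin genes rose with IL-4 in both genotypes. Of the 16 genes of fusion and adhesion, 5 rose and 1 fell in WT, and 7 rose and 3 fell in CKO. Spp1, the osteopontin gene, fell in both (−1.22 ± 0.17 and −1.28 ± 0.17). Cdh1, the E-cadherin gene used in IL-4-driven fusion, had 2 and 6 counts in untreated WT and 393 and 475 after IL-4 (0.137 ± 0.0953 and 17.5 ± 2.06 CPM; log2 fold change of 6.94 ± 0.54, edgeR adjusted p = 1.23e-05). In CKO, Cdh1 rose from 0.330 ± 0.145 to 37.3 ± 14.4 CPM (6.75 ± 0.46, edgeR adjusted p = 3.66e-06). Itgb3, which IFN-γ lowered, rose to 143 ± 5.23 CPM in WT and 107 ± 7.24 in CKO (2.96 ± 0.17 and 3.02 ± 0.18). Of the 19 transcription factors, 5 rose and 1 fell in WT, and 7 rose and 1 fell in CKO. Pparg, a lipid-sensing receptor that also promotes osteoclast formation, rose from 20.1 ± 0.608 to 64.2 ± 1.49 CPM in WT and from 20.0 ± 1.18 to 72.1 ± 6.41 in CKO. Tfec, a relative of MITF, rose from 41.1 ± 1.06 to 101.2 ± 3.72 CPM in WT and from 56.3 ± 10.8 to 134 ± 1.22 in CKO. Of the 21 resorption genes, 3 rose in WT, and 4 rose and 3 fell in CKO; Atp6v0a1, another subunit of the proton pump, rose from 393 to 1071 CPM in WT (1.45 ± 0.12) and by 1.64 ± 0.12 in CKO. Of the 15 brakes, 2 rose and 3 fell in WT, and 2 rose and 5 fell in CKO. Irf8 fell by 0.42 ± 0.11 and 0.81 ± 0.11 on the log2 scale in WT and CKO. Of the 30 signalling genes, 2 rose and 4 fell in WT and 2 rose and 7 fell in CKO. Ptk2b, the kinase gene for PYK2, fell in both (−0.71 ± 0.12 and −0.61 ± 0.12).

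**Figure D3:**
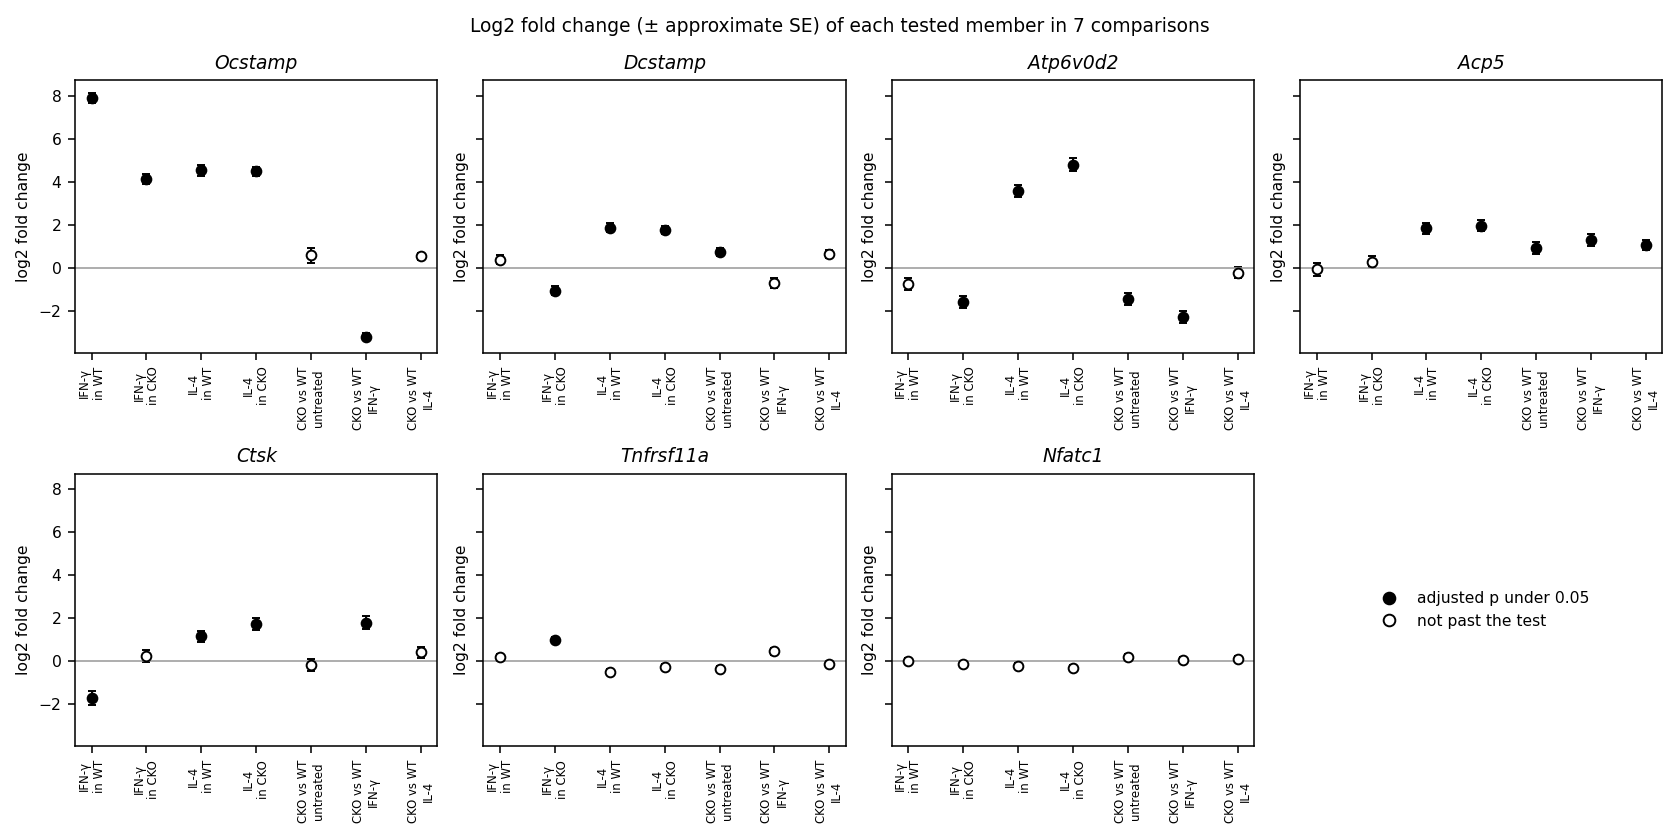
Log2 fold change of each tested member in the 7 comparisons of 2 groups, with bars for the approximate SE of the edgeR fit; filled points had an adjusted p under 0.05. Ocstamp, Dcstamp, Atp6v0d2, Acp5 and Ctsk are filled and above 0 for IL-4 in both genotypes, and Nfatc1 is open throughout.

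Untreated and after IFN-γ, some members were higher and others lower in CKO than in WT. In untreated cells Dcstamp and Acp5 were higher and Atp6v0d2 was lower in CKO, 3 of 7 tested members, against 18% of all tested genes (8.6% higher and 9.37% lower), and 5 did not overlap, against 59.4%. After IFN-γ Acp5 and Ctsk were higher and Ocstamp and Atp6v0d2 lower, 4 of 7 against 18.4% of all tested genes (10.4% higher and 8.01% lower), and 6 did not overlap, against 63%. After IL-4 Acp5 was higher, 1 of 7 against 2.96% (1.41% higher and 1.55% lower), and 5 did not overlap, against 47.8%. Ocstamp (0.54 ± 0.16, edgeR adjusted p = 0.114) and Dcstamp (0.65 ± 0.17, edgeR adjusted p = 0.0767) were higher in both CKO libraries than in both WT libraries without passing the edgeR test. In untreated cells, leaving out 1 of the 4 libraries at a time kept the sign of the 3 called differences. They ran from 0.62 to 0.91 for Dcstamp, from 0.75 to 1.14 for Acp5 and from −1.92 to −1.04 for Atp6v0d2. Each of these 3 calls was lost in at least 1 of these fits, as given above. Neutrophil markers moved with the genotype, with a summed level of 93.1 to 235 CPM in the WT libraries and 415 to 963 in the CKO libraries. Of the 9 neutrophil markers tested, 9, 8 and 7 were higher in CKO untreated, after IFN-γ and after IL-4, and their part in the members' values was not tested. The response to IFN-γ differed between genotypes for Ocstamp, Dcstamp and Ctsk, 3 of 7 against 2.72% of all tested genes (2.07% higher and 0.651% lower). For IL-4 no member's response differed past the test with edgeR or DESeq2, with 1 unadjusted p under 0.05, for Atp6v0d2, against 0.0368% of all tested genes called (0.0246% higher and 0.0123% lower). The sample names give a number to each genotype's libraries (such as WT1), but the labels do not say that a number marks 1 animal or culture. A block for this number within genotype called Atp6v0d2 for the IL-4 difference, as given above, and 5 members for the IFN-γ difference, adding Atp6v0d2 (−0.81, edgeR adjusted p = 0.0129) and Tnfrsf11a (0.82, edgeR adjusted p = 0.00435).

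The lists held genes higher and genes lower in CKO in most conditions. Of the 15 brakes, 3 were higher and 4 lower in CKO untreated, 9 higher and 2 lower after IFN-γ, and 2 higher and 2 lower after IL-4. Id3, an inhibitor of helix-loop-helix factors, had the smallest adjusted p of the list in all 3 (log2 fold changes of 3.29 ± 0.17, 2.25 ± 0.17 and 2.54 ± 0.17), and Irf8 was next (1.57 ± 0.12, 1.23 ± 0.11 and 1.17 ± 0.11). As given above, the Irf8 count covers the whole gene and does not check a deletion of single exons. This limit holds wherever Irf8 is counted among the brakes. Lilrb4a, an inhibitory receptor gene, had a response to IFN-γ that differed between genotypes: it went from 666 ± 38.6 to 1498 ± 54.1 CPM in CKO and from 924 ± 6.30 to 897 ± 79.1 in WT (interaction 1.21 ± 0.14, edgeR adjusted p = 0.00109). Of the 21 resorption genes, 6 were higher and 1 lower in CKO untreated, 9 higher and 1 lower after IFN-γ, and 2 higher and 1 lower after IL-4. Clcn7 stood at 218 ± 2.81 CPM in untreated CKO against 122 ± 0.0387 in WT, and at 610 ± 21.7 against 285 ± 19.7 after IFN-γ. Mmp9, a gelatinase gene of osteoclasts and of neutrophils, was higher by 1.62 ± 0.30, 2.66 ± 0.30 and 1.42 ± 0.30. Of the 16 fusion and adhesion genes, 3 were higher and 5 lower untreated, 6 higher after IFN-γ, and 2 higher and 1 lower after IL-4. Spp1, the gene of the bone matrix protein osteopontin, was lower by −1.49 ± 0.17 untreated and −1.54 ± 0.17 after IL-4. Of the 19 transcription factors, 3 were higher and 2 lower untreated, and 5 were higher and 3 lower after IFN-γ, Jdp2 (−1.30 ± 0.23) and Nfatc2 (−0.98 ± 0.14) among the lower; after IL-4 edgeR called 0, with 3 at an unadjusted p under 0.05 and 0 called by DESeq2. Of the 30 signalling genes, 4 were higher and 2 lower untreated, 7 were higher after IFN-γ and 2 were lower after IL-4. The response to IFN-γ differed between genotypes for 4 fusion and adhesion genes, all more positive in CKO, Spp1 among them (interaction 1.25 ± 0.23, edgeR adjusted p = 0.0153), for 4 brakes (3 more positive and 1 more negative in CKO) and for 1 transcription factor, Nfatc2. It differed for 0 signalling and 0 resorption genes by edgeR (8 and 3 at an unadjusted p under 0.05, 0 and 1 called by DESeq2).

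Calls over all tested genes changed when a library was left out, as given at the end. Changes in list counts with such an omission were not separated from this change over all genes. The list counts that use untreated CKO were also taken without its library 1, an alternative chosen after seeing the data. For genotype in untreated cells they became 2 higher and 3 lower for fusion and adhesion, 1 and 1 for signalling, 3 and 4 for the brakes and 2 and 1 for resorption, and edgeR called 0 transcription factors (6 at an unadjusted p under 0.05). With IFN-γ in CKO, 6 fusion and adhesion genes rose and 3 fell, 5 signalling genes rose and 4 fell, 5 transcription factors rose, 9 brakes rose and 1 fell, and 6 resorption genes rose and 5 fell. With IL-4 in CKO, 4 fusion and adhesion genes rose and 2 fell, 4 signalling genes fell, 7 transcription factors rose and 1 fell, 2 brakes rose and 2 fell, and 2 resorption genes rose and 2 fell. The response to IFN-γ then differed for 2 fusion and adhesion genes, 2 brakes and 2 transcription factors. The differences in that response of Lilrb4a (1.24, edgeR adjusted p = 0.00147), Spp1 (1.41, edgeR adjusted p = 0.0122) and Nfatc2 (−1.14, edgeR adjusted p = 0.0243) still passed the test, as did the untreated genotype differences of Irf8 (1.45, edgeR adjusted p = 4.74e-05) and Mmp9 (1.33, edgeR adjusted p = 0.0355).

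**Figure D4:**
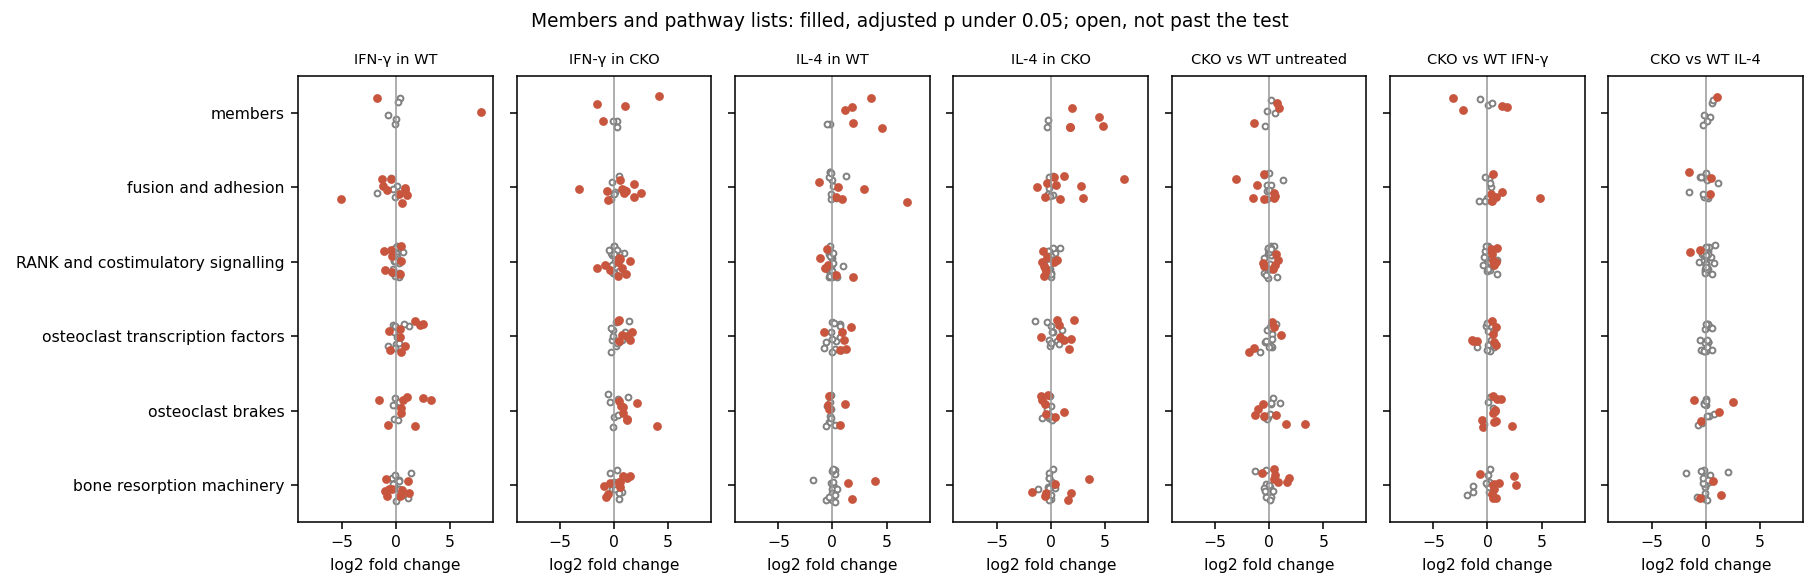
Log2 fold changes of the tested members and of the tested genes of 5 pathway lists in the 7 comparisons of 2 groups; each point is a gene, filled where its adjusted p was under 0.05. With IL-4 the filled members lie to the right of 0 in both genotypes, while the filled genes of most lists lie on both sides.

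Across the 12 libraries the members did not share 1 pattern. Between Dcstamp and Atp6v0d2 Pearson's r of log2 CPM was 0.885, between Acp5 and Ctsk 0.831, and between Ocstamp and the other tested members it lay between −0.298 and 0.200. Tnfrsf11a had negative values with Dcstamp (−0.858) and Atp6v0d2 (−0.800). These values describe 12 libraries in 6 groups that share depth and treatment. Among 8601 or 8602 tested genes with a mean log2 CPM of at least 3, the pattern of Ocstamp was most like that of St7 (r = 0.987) and Rab19 (0.959), and that of Dcstamp most like Slc37a3 (0.972) and Casp6 (0.947). Atp6v0d2 was most like Egr2 (0.983) and Xpnpep3 (0.978), Acp5 most like Tmbim1 (0.965) and Stxbp3 (0.956), and Ctsk most like Tbc1d1 (0.963) and St3gal1 (0.960). Tnfrsf11a was most like Cyfip1 (0.964) and Pik3ap1 (0.963), and Nfatc1 most like Wipf2 (0.947) and Kdm3b (0.930).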

How the data were processed

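Gene counts of 12 RNA-seq libraries (exon capture kit, per the labels) were deposited by the authors as raw whole numbers. The submitters' processing notes list HTSeq 0.6.1, Picard 1.97, TopHat2 2.0.13 and CASAVA 1.8.2 as tools and GRCh38 and mm10 as builds, without their roles. For annotation release and strand setting, nothing was given in the sources used here. Totals ran from 21287725 to 32717379 counts. Of 48440 genes, 16292 passed edgeR's filterByExpr. CPM used TMM factors. Testing used the quasi-likelihood F test of edgeR 4.0.16 under R 4.3.3, in 1 fit of 6 group means with 6 residual degrees of freedom, Benjamini-Hochberg adjusted at 0.05 over all tested genes in each of 9 comparisons; each SE was obtained by dividing the size of the log2 fold change by √F. The scripts were tested on simulated data.

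Positions and exon lengths came from GENCODE M21 (GRCm38), identifiers of Acp5, Dcstamp and Nfatc1 matching without their version. Promoters came from RefSeq (GRCm38.p6), with entries for Acp5, Ctsk, Tnfrsf11a and Oscar printed or searched. Members, lists and the rule for names (per list and comparison, up to 3 genes with the smallest adjusted p, 1 in interactions) were chosen with earlier results of these data known. Some genes that this rule names are not reported here. Itgam, on 2 rows, was taken by the row with more counts. Alternatives were DESeq2 1.42.0, DESeq2 size factors, no filter, a mean CPM of at least 5, only the compared groups, library-number blocks and leaving out each library.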

Additional observations from a re-analysis of the deposited data

Results flagged for a closer look

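Differences between the genotypes in the response to IFN-γ stood out for 3 members. The interaction was −3.80 on the log2 scale for Ocstamp (edgeR adjusted p = 0.000605), −1.43 for Dcstamp (edgeR adjusted p = 0.0275) and 1.96 for Ctsk (edgeR adjusted p = 0.0317). With all 8 single-library omissions the Ocstamp difference kept its call, and those of Dcstamp and Ctsk did not.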

How the results depend on the processing

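Of the 27 calls of members, 19 held in every alternative run, and 12 of the 36 uncalled results passed in at least 1; the cause was not tested. Fitting only the compared groups gave 1 called member for genotype in untreated cells (836 of all genes), 0 for genotype after IL-4 (310 of all genes; 4 members at an unadjusted p under 0.05), 1 for the genotype difference in the IFN-γ response (289), 3562 genes for IL-4 in WT, 1216 for IL-4 in CKO and 0 for the genotype difference in the IL-4 response (748 at an unadjusted p under 0.05). With no filter on low counts, 3 members and 1129 genes were called for genotype after IL-4, 5 and 1019 for the difference in the IFN-γ response, and 1 and 291 for that in the IL-4 response. A minimum mean CPM of 5, which removed Dcstamp, gave 290 genes for genotype after IL-4, and DESeq2 gave 2 members there and 42 genes for the difference in the IL-4 response.

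The labels number the libraries of each genotype without saying what a number shares; library 1 minus library 2 correlated by 0.100 to 0.431 between groups of 1 genotype and by −0.00546 to 0.256 across genotypes. With the replicate block, 2 members and 860 genes were called for genotype after IL-4, 732 genes for the difference in the IFN-γ response and 26 for that in the IL-4 response. With the block within each genotype, 3023 genes were called for IL-4 in WT, 5 members and 1080 genes for the difference in the IFN-γ response, and 1 member (Atp6v0d2, edgeR adjusted p = 0.00411) and 85 genes for that in the IL-4 response. Nfatc1 with IFN-γ in WT, 0.00 in the reported fit, was −0.012 with the CPM minimum, −0.0037 with the block and −0.0069 with the block within genotype.

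Leaving out 1 library at a time gave 0 to 3 members and 866 to 5034 genes for genotype in untreated cells, 1209 to 1890 genes for genotype after IFN-γ, 0 to 1 members and 128 to 651 genes for genotype after IL-4, 2611 to 3121 genes for IFN-γ in WT, 2675 to 5256 for IFN-γ in CKO, 898 to 1072 for IL-4 in WT and 1725 to 5217 for IL-4 in CKO. The difference in the IFN-γ response ranged from 1 to 3 members and 137 to 940 genes, and that in the IL-4 response from 1 to 329 genes. Signs turned only for uncalled values: Ctsk −0.45 to 0.18 (genotype, untreated), Nfatc1 −0.13 to 0.35 (genotype after IFN-γ), Atp6v0d2 −0.56 to 0.060 and Tnfrsf11a −0.25 to 0.0032 (genotype after IL-4), Acp5 −0.34 to 0.15 and Nfatc1 −0.26 to 0.22 (IFN-γ in WT), Nfatc1 −0.34 to 0.14 (difference in the IFN-γ response), and Ocstamp −0.81 to 0.49, Dcstamp −0.25 to 0.035, Acp5 −0.31 to 0.45 and Nfatc1 −0.22 to 0.022 (difference in the IL-4 response). Groups of 2 limit these tests, and a group left with 1 library was assumed to vary like the others. The groups did not vary alike. A chi-square per gene between the 2 libraries was 4.72 in IL-4 WT, 4.90 in IFN-γ CKO and 24.9 in IL-4 CKO. It was 33.6 in untreated WT, 38.7 in IFN-γ WT and 83.8 in untreated CKO. The reported fit shares its estimate of the spread over all groups.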
